A study of Mus musculus with 6 samples.

Results

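Retinoic acid synthesis and reception was followed through 9 genes, taken by symbol from the 32285 genes of the count tables, and all 9 were listed in each of the 6 libraries. They comprised the 3 retinaldehyde dehydrogenases *Aldh1a1*, *Aldh1a2* and *Aldh1a3*, the cellular retinoic acid binding proteins *Crabp1* and *Crabp2*, the receptors *Rara*, *Rarb* and *Rarg*, and the breakdown enzyme *Cyp26b1*. The libraries held single cells of autonomic ganglia dissected from transgenic mouse pups of both sexes at postnatal day 5. Every group carried the same alleles, a Cre transgene on a bacterial artificial chromosome and a *Rosa* reporter that yields the red fluorescent protein tdTomato after recombination, so no group without them was compared. Whole ganglia were dissociated and no sorting step was described, so that neurons, glia and connective tissue cells were captured together. The stellate ganglion, the lumbar chain and the coeliac ganglion are sympathetic, the sphenopalatine ganglion is parasympathetic, and the pelvic ganglion innervates the pelvic organs. The pelvic ganglion had 2 libraries, described as biological replicates, and each of the other 4 ganglia had 1. The stellate, the sphenopalatine and the library called pelvic_1 were made in round 1 with droplet chemistry version 2 and 10000 cells loaded, and the coeliac, the lumbar and pelvic_2 in round 2 with version 3 and 5300 cells loaded. The number of pups behind each library was not given in the sources used here.

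After filtering, 21442 cells were retained, between 1427 in the coeliac and 7219 in the stellate library, out of deposited matrices with 39353313 to 113352559 unique molecular identifiers (UMIs, tags that count captured RNA molecules). Cells were sorted into classes by markers that included none of the 9 genes. There were 7054 neurons (238 to 2723 per library), 8083 glia (562 to 2647) and 2010 fibroblasts (118 to 597), and a further 1229 connective tissue cells whose clusters were led by *Cldn1* and *Lypd2* were kept apart. The 7 neuronal markers summed to 16305 CPM (the UMIs of a gene as counts scaled to one common total of UMIs) or more in the neurons of every library and to 2996 or less in glia, and the 7 fibroblast markers to 36636 or more in fibroblasts and 254 or less in neurons. Median depth was 26644 to 108546 UMIs per neuron but 3492 to 12115 per glial cell. A share of cells with a UMI therefore follows depth, and levels were compared between classes as CPM of the summed counts of a class in a library. The 6 libraries shared few cell barcodes, at most 49 between a pair (stellate and sphenopalatine). Levels were not compared between genes.

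Retinoic acid is made from vitamin A (retinol) in steps: retinol dehydrogenases give retinal, and the retinaldehyde dehydrogenases oxidise it irreversibly to the acid. Inside a cell the acid is bound by the Crabp proteins, degraded by enzymes of the Cyp26 family, or carried to the nucleus, where the receptors Rara, Rarb and Rarg act on DNA together with a retinoid X receptor. In the embryo *Aldh1a2* is a main source of retinoic acid along the trunk, and the acid can diffuse from the cells that make it to cells that receive it. *Rarb* and *Cyp26a1*, which encodes another breakdown enzyme, are textbook genes that respond directly to the acid.

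Because both genes return in the results below, their promoters are shown, from RefSeq on GRCm38.p6. The 250 bases before and 50 after each gene start were searched on both strands for pairs of any of 4 hexamers (AGGTCA as one, then also AGTTCA, as well as GGGTCA, and finally GGTTCA) in the same orientation, separated by 1, 2 or 5 bases. Promoters were held for 7 of the 9 members, and *Rarb* was the only one of these with a match, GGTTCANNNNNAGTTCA at position -53 relative to the start. Among 36 other retinoid genes, *Cyp26a1* had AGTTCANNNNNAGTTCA on the minus strand at position -32, and *Bco1* had a pair separated by 1 base. Over all 32851 promoters, 0.222% held a pair separated by 1 base, 0.268% a pair separated by 2 and 0.0974% a pair separated by 5. The 100 bases that end at the base before the start are printed 5′ to 3′ on the strand of the gene, for *Rarb* at chr14:16575477-16575576 (minus strand) and for *Cyp26a1* at chr19:37697708-37697807 (plus strand), with the matched hexamers in capitals. The *Rarb* stretch lies inside the span of the gene (chr14:16430839-16819156), so the start used here is not its outermost one. Which start the cells use was not tested. The match is one of letters only, and nothing was measured at these promoters.

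Rarb: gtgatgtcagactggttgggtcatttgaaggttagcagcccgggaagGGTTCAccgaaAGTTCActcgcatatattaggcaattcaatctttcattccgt

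Cyp26a1: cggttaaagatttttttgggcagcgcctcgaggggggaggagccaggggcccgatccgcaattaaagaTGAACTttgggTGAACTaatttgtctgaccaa

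Of the 3 synthesis enzymes, *Aldh1a2* (chr9:71215789-71296243, plus strand) had a level in neurons that set the pelvic ganglion apart from the sympathetic ganglia. It reached 18.2 CPM in the neurons of pelvic_1 and 43.2 in those of pelvic_2. Sphenopalatine neurons had 6.41 CPM. No UMI of it was found in 930 lumbar, 238 coeliac or 2723 stellate neurons, which allows a share of neurons with a UMI of up to 0.323%, 1.26% and 0.110% and sets no limit on neurons that express it below detection. Such floors and all intervals given here cover counting error only. A UMI was found in 16.8% of pelvic_1 neurons (95% Wilson interval 14.5 to 19.4), 26.6% of pelvic_2 neurons (22.4 to 31.4) and 8.73% of sphenopalatine neurons (7.54 to 10.1). After each neuron was thinned to 4000 UMIs these shares were 6.73%, 11.4% and 2.27%. Immune cells were taken as a gauge of free RNA, and whether they express the gene themselves was not tested. Of these cells, 1 of 124 in pelvic_1, 1 of 58 in pelvic_2 and 1 of 109 in the sphenopalatine had a UMI. Their median depths were 7371, 16254 and 7740 UMIs, against 39394, 108546 and 38153 per neuron. In the stellate library it was 1 of 242 immune cells, with 0 UMIs in its neurons, glia and fibroblasts. With immune cells thinned to 2000 UMIs, the share was 0 in each of the 6 libraries.

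Most of the *Aldh1a2* of pelvic neurons lay in few cells. The 1261 pelvic neurons were clustered with the 9 genes and 36 other retinoid genes left out. Of 7 clusters, 3 could be named by markers, namely P2-like, P3-like (noradrenergic, led by *Th*) and P4-like (led by *Calca*, *Tgfb2* and *Sst* among the genes used). The cluster called cluster 1 was led by *Fst*, cluster 4 by *Gng8* and *Pcp4l1* and cluster 5 by *Areg* and *Cartpt*. Cluster 2 carried fibroblast and glial RNA. P4-like neurons, 60 in pelvic_1 and 32 in pelvic_2, had 189 CPM of *Aldh1a2* in pelvic_1 (exact Poisson 95% interval 172 to 207) and 312 in pelvic_2 (293 to 331), with a UMI in 97.6% ± 1.03 of neurons (SD, n = 2 libraries). Even after thinning it was found in 55.9% and 65.6% of them. They held 69.4% of the *Aldh1a2* UMIs of pelvic_1 neurons and 65.2% of those of pelvic_2. The gene is among those the study lists for P4, so its level there is a description and was not tested.

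Outside the P4-like cluster, *Aldh1a2* was unevenly spread. Cluster 1 had 15.6 CPM in pelvic_1 and 26.6 in pelvic_2, and cluster 4 had 14.6 and 41.4. Cluster 2 had 6.70 and 15.7. In the other 3 clusters the level stayed at or below 0.933 CPM in both libraries, and the noradrenergic P3-like neurons had a UMI in 1.54% of pelvic_1 and 0 of 33 pelvic_2 neurons, which allows a share with a UMI of up to 9.09%. Cells with at least 10 UMIs of the gene numbered 22 in pelvic_1 and held 41.2% of its neuronal UMIs. In pelvic_2, 54 such neurons (14.7%) held 92.7%. Only 7 of the 1902 sphenopalatine neurons had as many, and no lumbar, coeliac or stellate neuron did. The pelvic cells of this kind were cholinergic by their transporter *Slc18a3*, at 583 CPM in pelvic_1 and 511 in pelvic_2, with *Th*, the first enzyme of noradrenaline synthesis, at 3.15 and 0.286 CPM. A further 45 cells of pelvic_1, in a neuron-like cluster that did not pass the selection of neurons, had *Aldh1a2* in 88.9% and *Rarb* in 75.6% of cells.

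**Figure D1:**
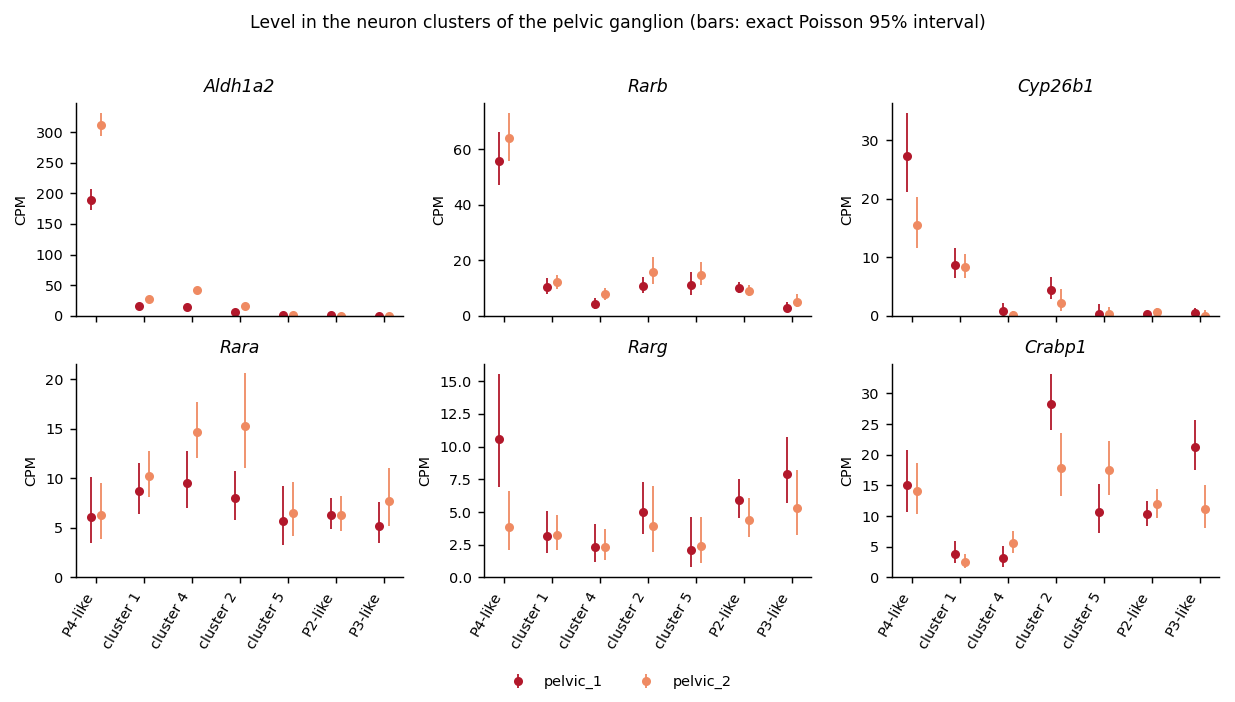
CPM of 6 of the genes in the 7 neuron clusters of the pelvic ganglion, with a point for each of the 2 pelvic libraries and bars for the exact Poisson 95% interval of the count; each panel has its own scale from 0. *Aldh1a2*, *Rarb* and *Cyp26b1* have their highest points in the P4-like cluster in both libraries, *Aldh1a2* at 189 and 312 CPM, while *Rara* and *Rarg* vary over a narrower range.

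The mesenchymal cells of the pelvic ganglion also carried *Aldh1a2*. Fibroblasts had 49.1 CPM in pelvic_1 and 59.4 in pelvic_2, against 1.69 in the coeliac, 2.08 in the sphenopalatine and no UMI in the lumbar or stellate library. The coeliac value rests on 5 UMIs in a single cell. The *Cldn1* and *Lypd2* cells had 18.5 and 25.4 CPM in the pelvic libraries and at most 0.721 elsewhere, and 20 mesothelial cells of pelvic_1 had 35.8. Glia of the pelvic ganglion had 1.71 and 1.70 CPM, with 13 and 12 UMIs in all. Immune cells of the same libraries, the gauge of free RNA, had 1.00 and 0.947 CPM. A UMI was found in 0.761% and 1.96% of pelvic glia and in 0.806% and 1.72% of these immune cells. The part of free RNA in the glial value was not tested. In fibroblasts, *Cldn1* and *Lypd2* cells and glia, both pelvic libraries lay above the other 4.

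*Aldh1a3* (chr7:66390890-66427517, minus strand), another enzyme of the same step, had its highest class level in connective tissue. In fibroblasts it stood at 51.5 CPM in the lumbar and 47.6 in the stellate library, at 13.3 in pelvic_2, 12.8 in the coeliac, 7.89 in pelvic_1 and 7.01 in the sphenopalatine. The lumbar chain and the stellate, both of the paravertebral chain, thus stood above the other 4 libraries. Neurons had 0.332 to 0.542 CPM and glia 1.05 to 1.71, and these ranges did not overlap. *Aldh1a1* (chr19:20492715-20643465, plus strand), the remaining enzyme, was at or below 0.388 CPM in the neurons and 0.915 in the glia of every library. It was found in pelvic fibroblasts (21.2 CPM in pelvic_1 and 6.14 in pelvic_2, against 0 to 4.15 elsewhere), in the mesothelial cells of pelvic_1 (33.1) and in 30 epithelial cells of pelvic_2 (104), which were present in those libraries alone. The *Cldn1* and *Lypd2* cells had the opposite order, with 1.74 and 0.820 CPM in the pelvic libraries against 2.54 to 9.37 elsewhere. In fibroblasts *Aldh1a1* also differed by kind of cluster, as given with the pelvic results.

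The binding protein *Crabp1* (chr9:54764748-54773110, plus strand) was carried by both neurons and glia, with different ganglia at the top of each. In neurons it stood at 109 CPM in the coeliac and 88.8 in the stellate library, at 19.9 in the lumbar and at 12.9 and 9.80 in the pelvic libraries, with the sphenopalatine lowest at 5.24. In glia the sphenopalatine had the highest level, 275 CPM, followed by pelvic_1 with 176 and pelvic_2 with 82.5, while the stellate, lumbar and coeliac had 50.9, 49.7 and 45.7. The order of the ganglia in neurons was thus nearly inverted in glia. The stellate is the library with the most free RNA of the gene, with a UMI in 7.85% of immune cells (13.0 CPM), against 40.2% of its neurons, whose median depths were 6048 and 26644 UMIs.

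Sympathetic neurons differed among themselves in *Crabp1*. Neurons with at least 10 UMIs of it made up 20.2% of coeliac neurons and held 90.0% of their *Crabp1* UMIs. In the stellate 7.53% of neurons held 65.1%, and in the lumbar chain 3.76% held 71.0%. These neurons were deeper than the rest (median 112812 against 49304 UMIs in the coeliac, 46415 against 25282 in the stellate and 100731 against 67815 in the lumbar chain), which such a threshold favours. Their *Th* level was 760 CPM against 604 in the coeliac, 1475 against 929 in the stellate and 458 against 452 in the lumbar chain. *Slc18a3* stood at 2.93 against 2.52 CPM in the coeliac, at 3.05 against 12.2 in the stellate and at 61.4 against 26.3 in the lumbar chain. Their *Rarb* level was 8.79 against 2.36 CPM in the coeliac, 7.89 against 3.54 in the stellate and 11.3 against 2.69 in the lumbar chain. In all 3 sympathetic ganglia *Rarb* was thus the higher of both values in the cells rich in *Crabp1*, as a description with no test.

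Glial clusters differed too. The largest cluster with *Ctnnd2* among its 10 leading genes had 58.9 CPM of *Crabp1* in the stellate, 71.3 in the lumbar chain, 83.3 in the coeliac, 292 in the sphenopalatine, 142 in pelvic_2 and 305 in pelvic_1. The cluster led by *Kcna1*, with *Scn7a* also among its leading genes, had 36.8, 21.9, 11.2, 195, 27.0 and 60.9 CPM in the same order. The *Kcna1* cluster was the lower of this pair in each of the 6 libraries. Clusters led by myelin genes such as *Pmp2* and *Cldn19* had 4.68 CPM in 73 cells of pelvic_1 and 0 in 15 cells of the sphenopalatine.

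*Crabp2* (chr3:87948666-87953376, plus strand), the partner that delivers the acid to the receptors, was concentrated in the *Cldn1* and *Lypd2* connective tissue cells. These had 38.3 CPM in pelvic_1, 38.8 in pelvic_2, 47.8 in the coeliac, 72.4 in the lumbar, 74.6 in the stellate and 154 in the sphenopalatine library, and in each library they were above glia, fibroblasts and neurons. Fibroblasts had 47.2 CPM in the sphenopalatine and 4.39 to 10.7 in the other libraries, glia 1.49 to 12.2 and neurons 0.428 to 1.33.

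All 3 receptors were found in neurons, glia and fibroblasts of every library, with the lowest level in neurons for *Rara* and *Rarg*. *Rara* (chr11:98927818-98974942, plus strand) ranged from 3.21 CPM in the stellate to 9.61 in pelvic_2 among neurons, from 25.8 to 50.3 among glia and from 19.7 to 37.1 among fibroblasts. *Rarg* (chr15:102234938-102257517, minus strand) was at 0.774 CPM in lumbar, 1.55 in coeliac, 1.88 in stellate, 3.55 and 5.20 in pelvic and 5.59 in sphenopalatine neurons. The 3 sympathetic ganglia thus had the lowest neuronal *Rarg*. In glia *Rarg* ranged from 17.6 to 32.6 CPM and in fibroblasts from 11.4 to 54.2. Other classes were as high: over the 6 libraries mean *Rara* was 44.7 CPM in endothelial cells, 38.5 in glia and 27.5 in fibroblasts. Mean *Rarg* was 36.8 CPM in the *Cldn1* and *Lypd2* cells, 34.7 in endothelial cells, 29.6 in fibroblasts and 26.5 in glia.

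*Rarb* (chr14:16430839-16819156, minus strand) separated the ganglia in neurons. It stood at 11.5 CPM in pelvic_1 and 15.0 in pelvic_2, against 4.90 in sphenopalatine, 4.55 in coeliac, 4.06 in stellate and 3.14 in lumbar neurons. Both pelvic libraries therefore lay above all 4 others, and this also held in glia (29.8 and 37.9 against 22.2 to 29.3 CPM) and fibroblasts (10.4 and 13.0 against 1.89 to 7.09). In glia the nearest values, 29.8 and 29.3 CPM, were close. Kinds of fibroblast cluster are described with the pelvic results. The fibroblast order held within *Thbs4* and *Ccl11* clusters, at 10.6 and 9.03 CPM (5 and 11 UMIs) against 1.89 to 5.81. Within *Clec3b* or *Pi16* clusters pelvic_1 (10.4) was just below the coeliac (10.7, from 9 UMIs), with pelvic_2 at 12.7 and the sphenopalatine at 6.54. Within the pelvic ganglion, P4-like neurons had 55.9 CPM in pelvic_1 and 64.1 in pelvic_2, with a UMI in 81.7% and 96.9% of neurons, and in 18.6% and 28.1% after thinning. The other clusters ranged from 2.90 CPM in the P3-like neurons of pelvic_1 to 15.7 in cluster 2 of pelvic_2. *Rarb* too is listed by the study for P4.

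**Figure D2:**
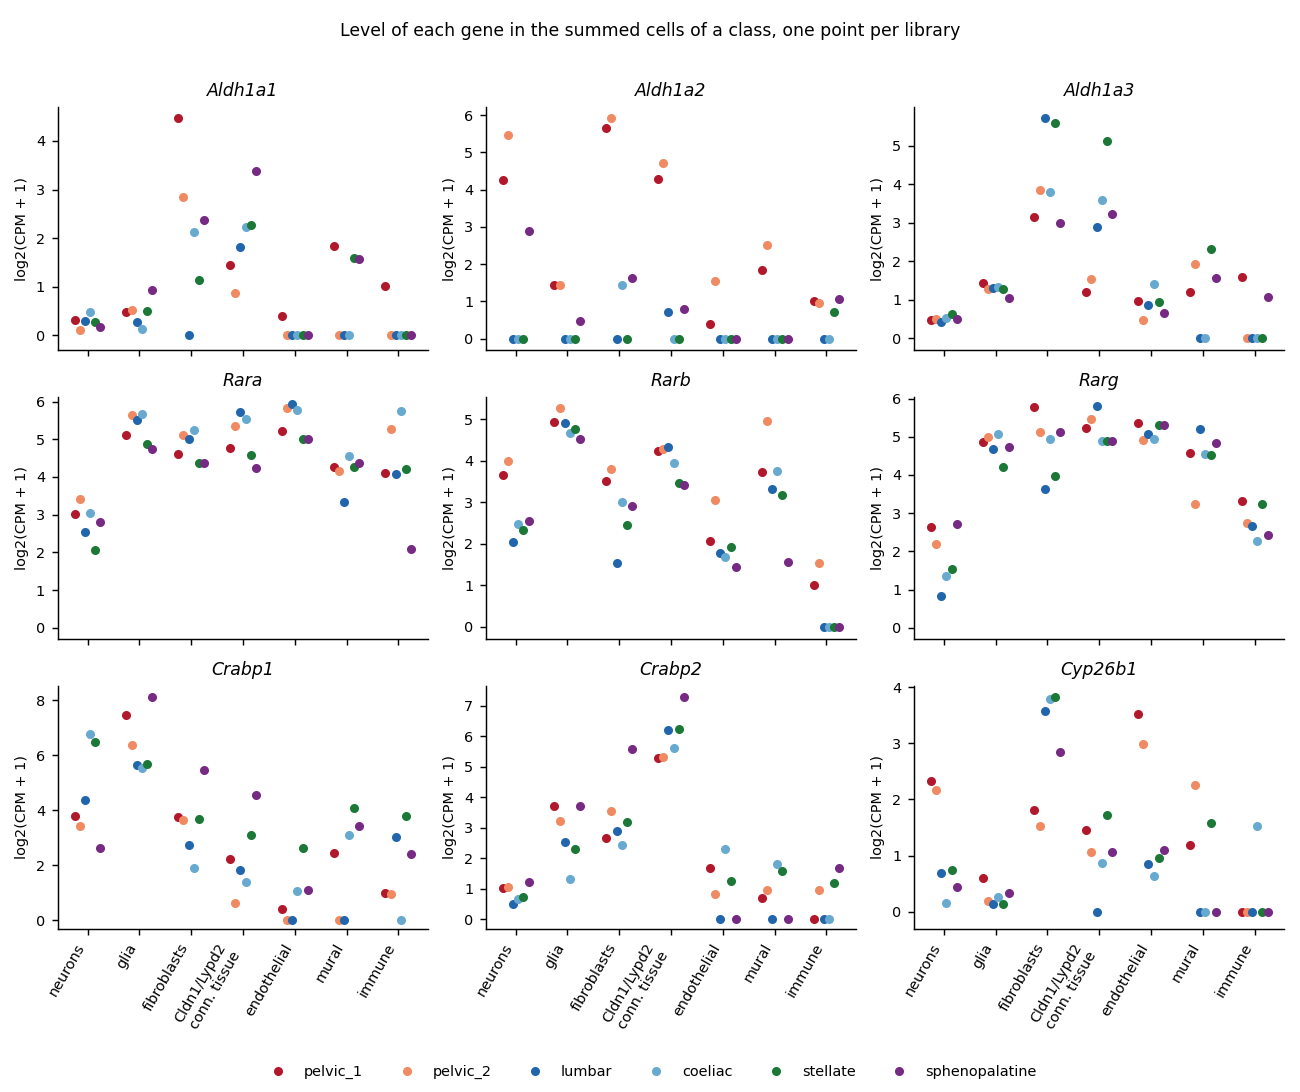
Level of each of the 9 genes as log2(CPM + 1) of the summed cells of a class (7 classes on the horizontal axis), with a point for each of the 6 libraries that is coloured by library; each panel has its own scale. Pelvic points (red and orange) are above the rest for *Aldh1a2* in neurons, glia, fibroblasts and *Cldn1*/*Lypd2* cells, and *Rara* and *Rarg* are lower in neurons than in glia in all 6 libraries.

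The breakdown enzyme *Cyp26b1* (chr6:84571414-84593908, minus strand) was in different cells in different ganglia. Pelvic neurons had 4.03 CPM in pelvic_1 and 3.50 in pelvic_2, against 0.668 in stellate, 0.608 in lumbar, 0.355 in sphenopalatine and 0.111 in coeliac neurons. Fibroblasts showed the opposite order, with 2.51 and 1.90 CPM in the pelvic libraries against 6.23 in the sphenopalatine, 11.0 in the lumbar, 12.8 in the coeliac and 13.2 in the stellate library. Within *Thbs4* and *Ccl11* fibroblast clusters this order did not hold for both pelvic libraries, as given with the pelvic results. Within *Clec3b* or *Pi16* clusters the counts were too low to read an order. Endothelial cells had 10.5 and 6.89 CPM in the pelvic libraries and at most 1.13 elsewhere. Among pelvic neurons, P4-like neurons had 27.4 and 15.5 CPM and cluster 1 had 8.72 and 8.34, whereas P2-like, P3-like, cluster 4 and cluster 5 neurons had 0.832 or less. A UMI was found in 38.3% and 53.1% of P4-like neurons. After thinning it was found in 11.9% of them in pelvic_1 and in 0 of 32 in pelvic_2, a limit of detection at that depth.

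The genes for synthesis, reception and breakdown were thus found in the same P4-like neurons. *Aldh1a2* and *Rarb* were detected together in 80.0% of these neurons in pelvic_1 and 96.9% in pelvic_2, and all 3 genes including *Cyp26b1* in 33.3% and 53.1%. P4-like neurons also carried more RNA of glial markers than other named clusters, with the 7 markers at 423 and 402 CPM against 91.2 or less in P2-like and P3-like neurons, and none at 0. Glia of the pelvic libraries had 1.71 and 1.70 CPM of *Aldh1a2*, at most 0.525 CPM of *Cyp26b1*, and 29.8 and 37.9 CPM of *Rarb*. Fibroblast markers were at 134 CPM in the P4-like neurons of pelvic_1, against 65.9 to 143 in the other clusters apart from cluster 2, and at 256 in those of pelvic_2, against 60.7 to 77.1. Cluster 2 had 1165 and 1134. Pelvic fibroblasts had 49.1 and 59.4 CPM of *Aldh1a2*. The part of RNA from other cells in the P4-like values was not tested.

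To ask how each gene differed between neurons, glia and fibroblasts, these classes of the same libraries were compared with edgeR's quasi-likelihood test with the library as a block. Other classes were not tested, so the test does not show in which class of all a gene was highest. Of 8 members tested (*Aldh1a1* was too low), 7 passed between neurons and glia at an adjusted p under 0.05, beside a background of 75.6% of all 13884 genes (40.6% higher and 35% lower in neurons), so that the count itself sets nothing apart. Lower in neurons were *Rarg* (log2 fold change -3.17 ± 0.31 SE, adjusted p = 5.3e-07), *Crabp2* (-2.77 ± 0.38), *Rara* (-2.44 ± 0.15), *Rarb* (-2.05 ± 0.25) and *Aldh1a3* (-1.58 ± 0.44), each in 6 of 6 libraries. Higher in neurons were *Aldh1a2* (4.24 ± 0.76, adjusted p = 0.00059) and *Cyp26b1* (2.65 ± 1.03, adjusted p = 0.031). These rest on part of the ganglia: *Aldh1a2* was higher in 3 libraries and at 0 in both classes in the other 3, and *Cyp26b1* was higher in 5 of 6 but lost its call without the stellate, lumbar, pelvic_1 or pelvic_2 library, with adjusted p up to 0.066. The call of *Aldh1a2* was lost in DESeq2 (adjusted p = 0.077) and that of *Aldh1a3* with thinned cells (0.20). Glia held 1 to 4 UMIs of *Cyp26b1* per library. Of *Aldh1a2* they held 13 and 12 in the pelvic libraries, 3 in the sphenopalatine and 0 in the lumbar, coeliac and stellate. Both genes thus entered the test through neurons and fibroblasts, and their p adds nothing to the levels given above. *Crabp1*, higher in glia in 4 libraries and in neurons in the coeliac and stellate, did not pass (-1.26 ± 0.87, adjusted p = 0.20).

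Fibroblasts differed from glia in 5 of the 8 members, beside 48.1% of all genes (22.4% higher and 25.7% lower). *Cyp26b1* (5.62 ± 1.02), *Aldh1a2* (4.88 ± 0.79) and *Aldh1a3* (3.90 ± 0.42) were higher in fibroblasts, and *Crabp1* (-2.85 ± 0.83) and *Rarb* (-1.97 ± 0.28) were lower. Adjusted p was 0.012 for *Crabp1* and 0.00067 or less for the other 4. *Cyp26b1* and *Aldh1a2* are counted among the 5, but their glial counts were near 0, as given above. Their p here too adds nothing to the levels, and their folds depend on low counts. The call of *Aldh1a2* was lost, and its difference fell to 1.48, with *Thbs4* and *Ccl11* fibroblasts only (adjusted p = 0.10), a kind described with the pelvic results. *Rarb* was lower in fibroblasts in 6 of 6 libraries with no overlap of the ranges. *Rara* and *Rarg* differed from glia by -0.33 ± 0.15 and 0.12 ± 0.29.

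Against neurons, 5 members passed in fibroblasts and all 5 were higher there, beside 75.9% of all genes called, 34.8% called higher and 41.1% lower. They were *Aldh1a3* (5.48 ± 0.43), *Crabp2* (3.68 ± 0.40), *Rarg* (3.29 ± 0.31), *Cyp26b1* (2.97 ± 0.84) and *Rara* (2.11 ± 0.15), with adjusted p of 0.0057 or less. *Cyp26b1* was higher in fibroblasts in the 4 non-pelvic libraries and lower in both pelvic ones. *Aldh1a2* differed by 0.64 ± 0.61 and did not pass.

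**Figure D3:**
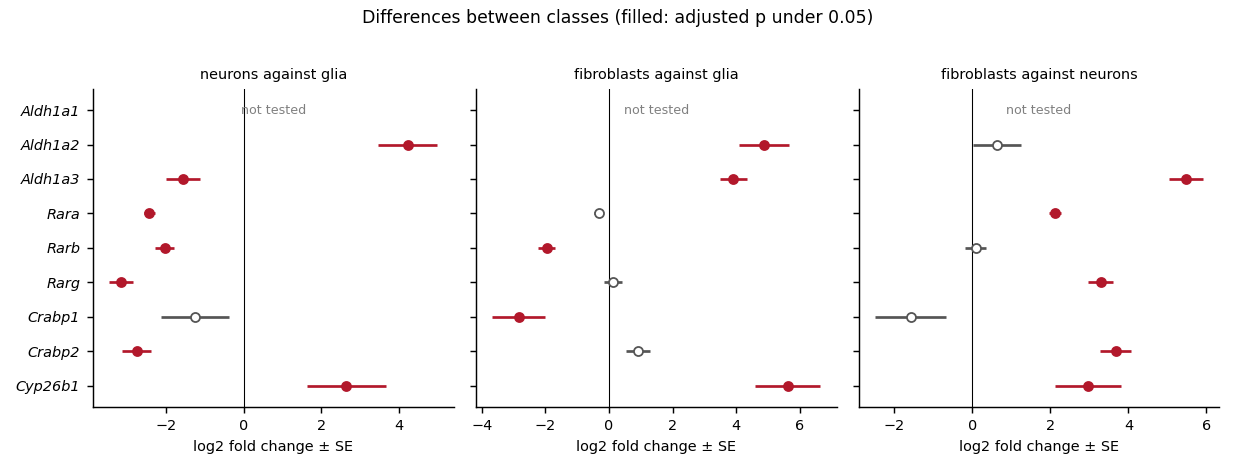
Log2 fold change ± SE (horizontal axis) of each gene between neurons, glia and fibroblasts over the 6 libraries, with filled red points where the adjusted p of edgeR's test was under 0.05 and open points where it was not. *Rara*, *Rarb*, *Rarg*, *Crabp2* and *Aldh1a3* are lower in neurons than in glia, and *Aldh1a3* and *Cyp26b1* are higher in fibroblasts than in either.

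Whether the pelvic ganglion differed from the other ganglia was tested within each class, 2 pelvic libraries against 4 others with the sequencing round as a covariate. In neurons no member of 9 passed, beside 0.459% of 16567 genes (0.356% higher and 0.103% lower). Those with the smallest p were *Rarb* (1.68 ± 0.24, adjusted p = 0.066) and *Cyp26b1* (3.03 ± 0.57, adjusted p = 0.099). DESeq2 called 3 members, beside 1330 of 16567 genes. *Aldh1a2* was 6.62 ± 2.91 higher with an adjusted p of 0.38 (0.021 in DESeq2), a spread that holds the sphenopalatine at 6.41 CPM and the sympathetic libraries at 0. The pelvic libraries lay above both other libraries of their own round for *Aldh1a2*, *Rara*, *Rarb* and *Cyp26b1*.

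The call depended on the sphenopalatine library. Without it, that is against the 3 sympathetic ganglia alone, 6 members passed in neurons beside 18.4% of 15719 genes (10.3% higher and 8.16% lower). *Rarb* (1.78 ± 0.22, adjusted p = 0.0021), *Cyp26b1* (2.78 ± 0.44, 0.0061), *Rarg* (1.59 ± 0.31, 0.012) and *Rara* (0.88 ± 0.22, 0.031) were then higher in the pelvic ganglion and *Crabp1* was lower (-2.73 ± 0.65, 0.028). *Aldh1a2* is counted among the 6, but it had no UMI in the sympathetic neurons and entered the test through the pelvic libraries alone, so its p adds nothing to the levels given above. *Rarb* is listed by the study for P4 from these same libraries, so its p in neurons is not independent of that listing. As the parasympathetic ganglion is a single library, its difference from the sympathetic ganglia was not tested.

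In glia none of 7 members tested passed, beside 0.0448% of 13391 genes (0.0373% higher and 0.00747% lower). Those with the smallest p were *Aldh1a2* (adjusted p = 0.20) and *Rarb* (0.31). DESeq2 called 0 members, beside 170 of 13131 genes. Without the sphenopalatine library *Crabp1* was higher in pelvic glia (1.24 ± 0.20, adjusted p = 0.011), beside 4.12% of all genes (1.92% higher and 2.21% lower). *Aldh1a2* then had no UMI in the other glia and entered the test through the pelvic libraries alone, with 13 and 12 UMIs, and pelvic glia held fibroblast markers at 4065 and 7214 CPM, against 1825 to 5328 in the other libraries. The part of RNA from other cells in this value was not tested.

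In fibroblasts 1 of 9 members passed, beside 1.46% of 11909 genes (0.94% higher and 0.521% lower). *Aldh1a2* was higher in the pelvic ganglion (5.64 ± 0.63, adjusted p = 0.024), in both pelvic libraries against each of the 4 others. The others held 8 UMIs in the sphenopalatine, 5 in the coeliac and 0 in the lumbar and stellate libraries, so that the fold depends on low counts. *Aldh1a2* thus entered this test too through the pelvic libraries alone, and its p adds nothing to the levels given above. The call was lost without pelvic_1 (adjusted p = 0.16), pelvic_2 (0.081), the coeliac (0.0502) or the lumbar library (0.10), and in DESeq2 (0.10). *Cyp26b1* was at -2.40 ± 0.43 with an adjusted p of 0.051, and 0.018 without the sphenopalatine.

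**Figure D4:**
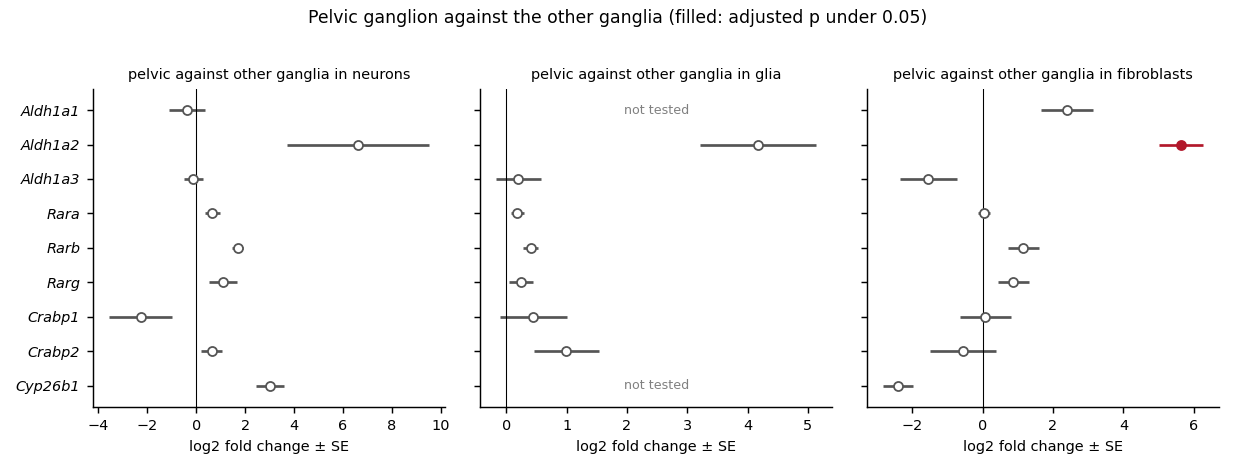
Log2 fold change ± SE (horizontal axis) of each gene between the 2 pelvic libraries and the 4 other libraries, in neurons, glia and fibroblasts, with a filled red point for an adjusted p under 0.05. *Aldh1a2* in fibroblasts is the only filled point, and *Cyp26b1* lies at 3.03 in neurons and at -2.40 in fibroblasts.

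The difference between the pelvic effects on *Cyp26b1* in the 2 classes was tested after the values were seen. The effect in fibroblasts minus that in neurons was -5.36 ± 0.66 on the log2 scale (adjusted p = 0.0030), beside 1.63% of all genes that passed this test. No other member passed, beside 0.266% of genes called for neurons minus glia, where *Rarb* had 1.33 ± 0.37 (adjusted p = 0.23), and 0.0504% for fibroblasts minus glia.

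Fibroblasts were not the same mixture in every ganglion, and this moved with the results above. Clusters with *Thbs4* or *Ccl11* among their 10 leading genes, called *Thbs4* and *Ccl11* clusters here, were 14.6% of the fibroblasts of pelvic_1 and 17.9% of those of pelvic_2, but 100% in the lumbar, 79.2% in the stellate, 56.2% in the coeliac and 41.1% in the sphenopalatine library. Clusters with *Clec3b* or *Pi16* among their 10 leading genes were 85.4% and 66.8% of the pelvic fibroblasts, 33.8% and 41.6% of those of the coeliac and sphenopalatine, and none was named as fibroblasts in the lumbar and stellate libraries. The stellate library did hold a *Clec3b* cluster of 23 cells, which was left unnamed because it carried 5 neuronal and 5 fibroblast markers. It had 0 UMIs of *Aldh1a2*, which allows up to 30.4 CPM at its depth. The lumbar library held a *Clec3b* cluster among the *Cldn1* and *Lypd2* cells. How far this came from dissection cannot be told apart from a property of the ganglia.

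Levels of some members differed between these kinds of fibroblast. In *Clec3b* or *Pi16* clusters *Aldh1a2* stood at 57.9 CPM in pelvic_1 and 88.2 in pelvic_2, against 5.92 in the coeliac and 5.72 in the sphenopalatine, so the pelvic level was the higher one within this kind too. In *Thbs4* and *Ccl11* clusters it was 6.34 and 5.74 CPM in the pelvic libraries, from 3 and 7 UMIs, and 0 in the other 4. *Aldh1a1* in *Clec3b* or *Pi16* clusters was at 25.5 CPM in pelvic_1, 9.59 in pelvic_2, 9.48 in the coeliac (8 UMIs) and 4.09 in the sphenopalatine. In *Thbs4* and *Ccl11* clusters *Aldh1a1* was at 0 and 3.28 CPM in the pelvic libraries and 0 to 4.10 in the others. *Cyp26b1* was higher in the *Thbs4* and *Ccl11* clusters, with 12.7 CPM in pelvic_1, 4.10 in pelvic_2 and 11.0 to 18.0 in the others. *Clec3b* or *Pi16* clusters had 0.432 and 1.81 CPM of it in the pelvic libraries, from 1 and 7 UMIs. They had 0 in the coeliac and sphenopalatine, which allows up to 3.55 and 2.45 CPM. *Rarg* had the reverse order, at 44.1 to 68.7 CPM in *Clec3b* or *Pi16* clusters and 11.4 to 31.7 in *Thbs4* and *Ccl11* clusters. Fibroblast clusters of neither kind had 33.5 CPM of *Aldh1a2* in pelvic_2, 0 in the coeliac and stellate and 1.09 in the sphenopalatine. Their *Cyp26b1* stood at 0.567 CPM in pelvic_2, 17.6 in the coeliac (13 cells), 8.61 in the stellate and 3.26 in the sphenopalatine.

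Restricted to *Thbs4* and *Ccl11* clusters, a choice made after the values were seen, *Cyp26b1* in pelvic fibroblasts was at -1.05 ± 0.48 (adjusted p = 0.43) and *Aldh1a3* at -2.07 ± 0.69 (adjusted p = 0.26), beside 0.923% of genes called (0.609% higher and 0.314% lower). *Aldh1a2* was too low to be tested there. The difference between the pelvic effects on *Cyp26b1* was then -4.07 ± 0.75 (adjusted p = 0.041). Its pelvic fibroblast side rests on 6 UMIs in 62 cells of pelvic_1 and 5 UMIs in 56 cells of pelvic_2. The effect in these fibroblasts alone did not pass, so the difference is no sign of a fall there. In the same restriction *Aldh1a2* was at -2.64 in fibroblasts against neurons, the reverse of its direction with all fibroblasts, where it had not passed. These clusters held 3 UMIs of *Aldh1a2* in pelvic_1, 7 in pelvic_2 and 0 in the other libraries. The gene thus entered this test through neurons alone. Its p adds nothing to the levels given above and is not given.

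**Figure D5:**
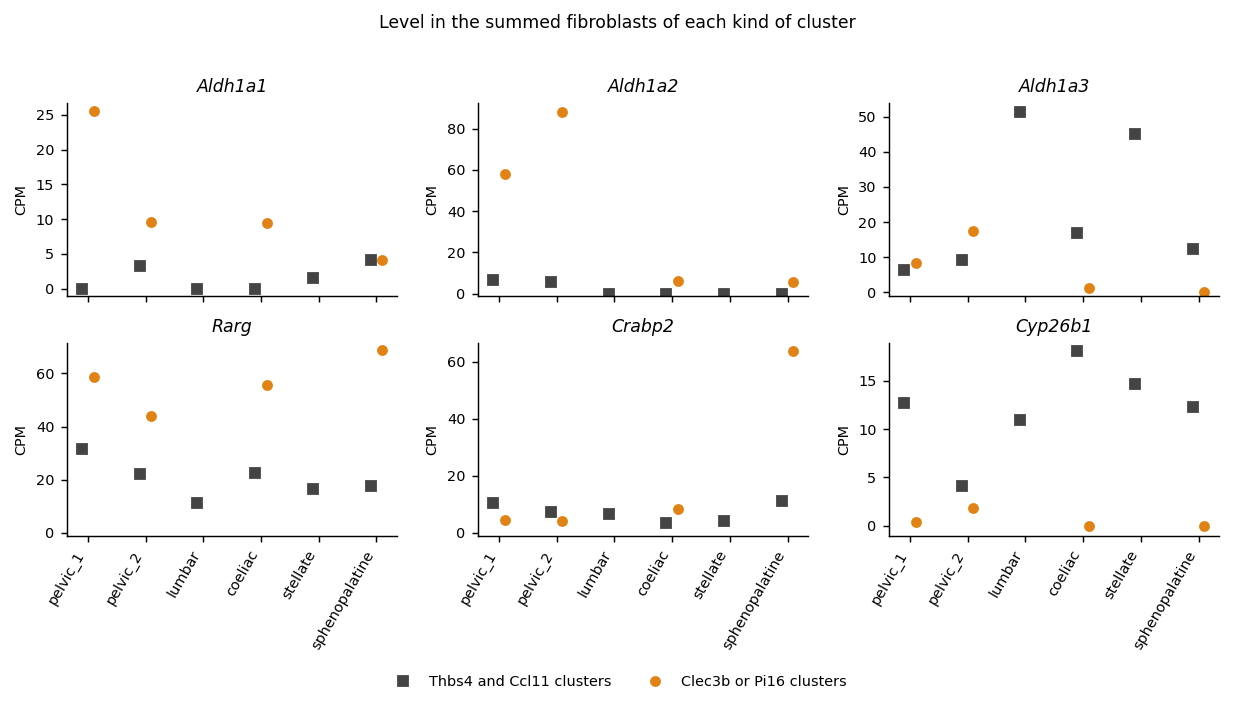
CPM of 6 genes in the fibroblasts of *Thbs4* and *Ccl11* clusters (grey squares) and of *Clec3b* or *Pi16* clusters (orange circles) in each of the 6 libraries, with no circle for the lumbar and stellate libraries, where no such cluster was named as fibroblasts. *Aldh1a2* and *Rarg* have their high points among the circles and *Cyp26b1* among the squares.

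The other 36 genes of the pathway were taken from a fixed list. Between neurons and glia 28 could be tested, of which 8 were higher and 12 lower in neurons, beside 40.6% and 35% of all genes. The strongest, all lower in neurons, were *Rarres2*, a gene known to respond to retinoids (-6.80 ± 0.26), the retinoid X receptor *Rxrg* (-5.98 ± 0.37), the retinal reductase *Dhrs3* (-5.25 ± 0.51), *Rdh5*, a retinol dehydrogenase (-3.36 ± 0.20), and *Dhrs4* (-2.70 ± 0.14). *Rxrg* was at 84.4 to 106 CPM in glia of all ganglia and 3.87 or less in neurons. Fibroblasts had 10 genes higher and 5 lower than glia, beside 22.4% and 25.7% of all genes, led by *Adh1*, an alcohol dehydrogenase able to oxidise retinol (8.32 ± 0.45), and *Hic1* (7.75 ± 0.33), with *Rarres1* (5.82 ± 0.45) and the transglutaminase *Tgm2* (3.57 ± 0.34) also higher and *Rxrg* lower (-5.59 ± 0.41). Against neurons they had 16 higher and 5 lower, beside 34.8% and 41.1% of all genes, and those with the smallest p were *Rarres2* (6.62 ± 0.26), *Hic1* (7.65 ± 0.30), *Adh1* (8.75 ± 0.39), *Tgm2* (5.97 ± 0.37) and *Dhrs4* (1.80 ± 0.14), all higher in fibroblasts.

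Between the pelvic and the other ganglia 1 of 30 pathway genes passed in neurons, beside 0.459% of all genes. This was *Cyp26a1* (adjusted p = 0.043), whose promoter is shown above. It entered the test through the pelvic libraries alone, where it is high, so its p adds nothing to its levels. No fold is given because the other libraries held 0 to 2 UMIs. Without the stellate library the call was lost, as 0 of 15723 genes passed. *Cyp26a1* stood at 1.55 CPM in pelvic_1 and 1.48 in pelvic_2, at 0.0252 in the stellate and 0.0132 in the sphenopalatine, and had no UMI in lumbar and coeliac neurons. It was highest in P2-like neurons, with 3.27 and 5.35 CPM, and not in the P4-like neurons (0.408 and 0.894) that held most *Aldh1a2*. None of 23 genes passed in glia and none of 25 in fibroblasts, beside 0.0448% and 1.46% of all genes.

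Some other steps were also unevenly spread over pelvic neurons, given as levels with no test. *Stra6*, which encodes a receptor for the carrier of retinol, was at 11.2 and 18.5 CPM in P3-like neurons and at 3.72 or less in the other clusters. *Lrat*, which stores retinol as esters, had 4.08 and 2.38 CPM in P4-like neurons and at most 1.32 elsewhere. *Rdh10*, the dehydrogenase that makes retinal, had 10.6 and 9.83 CPM there and 7.80 or less elsewhere. *Rarres1* had 20.0 and 38.1 CPM in P4-like neurons, 18.6 and 4.77 in P3-like neurons and 2.42 or less in the rest. *Lrat* and *Rdh10* are among the genes the study lists for P4.

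The genes most like each member were sought over 54 sums of cells (classes by library, and pelvic neuron clusters) among 13633 genes, by Pearson correlation of log2(CPM + 1). The sums share libraries, depth and free RNA, so these values are descriptions. *Aldh1a2* was most like *Hoxd11* (r = 0.79), followed by *Ak5* (0.76) and *Prr16* (0.74). *Aldh1a3* was most like *Thbs4* (0.88), *Lum* (0.87) and *Podn* (0.87), and *Crabp2* like *Lypd2* (0.87), *Efemp1* (0.85) and *Sbspon* (0.85); *Thbs4* and *Lypd2* are genes that lead connective tissue clusters. *Aldh1a1* was most like *Spon2* (0.86), *Slc7a10* (0.84) and *Gm9780* (0.83). Among the receptors, *Rarg* was most like *Prss23*, *Rab13* and *Ppic* (0.92 each), *Rara* like *Cast* (0.90), *Nod1* (0.88) and *Rgl1* (0.88), and *Rarb* like *Cldnd1* (0.81), *Fjx1* (0.81) and *Gm9885* (0.79). *Crabp1* was most like *Chadl* (0.81), *Ppp1r14c* (0.78) and *Mocs2* (0.77). *Cyp26b1* had no close match, with *Col8a1* (0.59), *Tmem215* (0.57) and *Ctxn3* (0.55) at the top.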

How the data were processed

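Single-cell libraries of 6 ganglion preparations were analysed. The values were UMI counts per gene and droplet that the authors made with Cell Ranger 6.0.1 on mm10 and deposited without normalization, for droplets called as cells. Droplets with 1500 to 11000 genes and under 15% mitochondrial UMIs were retained and normalized with sctransform 0.4.2 (R 4.3.3). Neurons had a mean of neuronal markers above 3 and of glial markers below 1.15. Other cells were clustered by Louvain within each library at resolution 2.0 (python-igraph 0.11.9) and named by at least 3 markers, and pelvic neurons at 0.3 on 50 components corrected by mutual nearest neighbours with 20 neighbours, always without 45 retinoid genes. Neuron and glia mixtures (223 cells) were left out, and 2778 cells near simulated doublets were removed in an alternative only.

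Cells of a library are not replicates, so counts were summed per library and class, at least 20 cells each, and tested with edgeR 4.0.16 (TMM factors, low-count filter, quasi-likelihood test, Benjamini-Hochberg over all genes tested, threshold 0.05). CPM intervals are exact Poisson and shares have Wilson intervals at 95%. A count of 0 allows up to 3 counts. Thinning was to 4000 UMIs for neurons and 2000 for other cells. The tests were tried on simulated data first.

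All 9 members are named. Of the 36 pathway genes, the 5 with the smallest p among those called are named in each test, and for likeness the 3 highest correlations among genes of at least 10 CPM in a sum. *Lrat*, *Stra6*, *Rdh10*, *Bco1* and marker genes were named after their values were seen. The members and lists were chosen with earlier results of these data known. Positions are from GENCODE M21 (GRCm38) by gene identifier. Alternatives were DESeq2 1.42.0, RLE factors, no filter, each library left out, doublets removed, thinning, and no library block or round term. Fibroblasts joined with *Cldn1* and *Lypd2* cells, *Thbs4* and *Ccl11* fibroblasts only, glia without unnamed lumbar clusters and pelvic neurons without cluster 2 were chosen after seeing the data. The driver of the Cre transgene is not reported here.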

Additional observations from a re-analysis of the deposited data

Results flagged for a closer look

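In 27 sets of the 4 non-pelvic libraries (9 genes in neurons, glia and fibroblasts), 5 had a library whose gap to its nearest neighbour exceeded Dixon's 95% limit for a group of this size, where chance gives about 1 in 20, and in all 5 it was the sphenopalatine, the only parasympathetic ganglion and 1 of 2 round 1 libraries among the 4. *Aldh1a2* stood at 6.41 CPM in its neurons and 0.392 in its glia (3 UMIs), against 0 in the stellate, coeliac and lumbar libraries. With the other 3 values at 0, any count at all exceeds this limit, so these 2 of the 5 carry no weight as flags. *Crabp1* in its glia was at 275 CPM against 50.9 in the nearest other library, and *Crabp2* in its fibroblasts at 47.2 against 8.09. *Aldh1a3* in its glia was at 1.05 CPM, below the nearest value of 1.43. This flag rests on 8 UMIs, with 14 or 15 in the glia of the lumbar, coeliac and stellate libraries, so it is weak. Ganglion type cannot be told apart from the single library here.

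The pelvic effect on *Cyp26b1* differed between fibroblasts and neurons by -5.36 ± 0.66 on the log2 scale (edgeR, adjusted p = 0.0030), a test chosen after the values were seen. The pelvic libraries were the highest of 6 in neurons and the lowest of 6 in all fibroblasts together. Within *Thbs4* and *Ccl11* clusters pelvic_2 was lowest (4.10 CPM), but pelvic_1 (12.7) was above the lumbar (11.0) and sphenopalatine (12.3). Within *Clec3b* or *Pi16* clusters the pelvic libraries had 0.432 and 1.81 CPM, from 1 and 7 UMIs. The coeliac and sphenopalatine had 0, which allows up to 3.55 and 2.45 CPM, so no order can be read there. With *Thbs4* and *Ccl11* fibroblasts only, the difference was -4.07 ± 0.75 (adjusted p = 0.041), with 6 and 5 UMIs in the pelvic fibroblasts.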

How the results depend on the processing

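Ganglia could not be paired by replicate because they share fewer than 2 replicate numbers, the pelvic ganglion being the only one with 2 libraries. The classes of cells were compared within libraries, with the library as a block, and the pelvic ganglion with the round as a covariate. The number of members called moved as follows. Between neurons and glia it was 7, beside 10501 of 13884 genes. With cells thinned to 4000 UMIs it was 4, beside 8571 of 12165 genes. There *Aldh1a3* lost its call, and *Aldh1a2* and *Cyp26b1* were not tested. In pelvic neurons it was 0 (beside 76 of 16567 genes) and 3 in DESeq2 (1330 of 16567). In pelvic glia it was 0 (6 of 13391) and 1 without the low-count filter (384 of 20639). In pelvic fibroblasts it was 1 (174 of 11909), and 2 with RLE factors (187 of 11909) or without the filter (540 of 19867). It was 0 there without the round term (4 of 11909) or with *Thbs4* and *Ccl11* fibroblasts only (94 of 10179). With each library left out it ranged from 6 to 8 for neurons against glia, beside 9905 to 10388 genes called. For fibroblasts it ranged from 5 to 6 against glia (5775 to 6272 genes) and against neurons (9959 to 10447 genes). With a non-pelvic library left out it ranged from 0 to 6 for pelvic neurons (6 without the sphenopalatine), beside 0 to 2900 genes. It then ranged from 0 to 2 for pelvic glia, beside 0 to 551 genes, and from 0 to 2 for pelvic fibroblasts, beside 1 to 399. Over all genes, pelvic neurons had 76 calls, 0 to 2900 over the alternatives and 1330 in DESeq2, pelvic glia 6 (0 to 551, DESeq2 170) and pelvic fibroblasts 174 (1 to 540, DESeq2 426). The cause was not tested, apart from fewer samples or genes where an alternative removes them.

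Shares of P4-like neurons were 97.6% for *Aldh1a2*, 60.8% thinned, 95.2% at 2 UMIs or more and 96.9% to 98.3% by library. For *Rarb* they were 89.3%, 23.4%, 72.1% and 81.7% to 96.9%, and for *Cyp26b1* 45.7%, 5.93%, 28.9% and 38.3% to 53.1%. *Aldh1a2* was found in 21.7% of pelvic neurons (9.05% thinned), 8.73% of sphenopalatine neurons (2.27% thinned, 4.73% at 2 UMIs) and 28.2% of pelvic fibroblasts (8.08%, 14.3%). *Crabp1* was found in 40.2% of stellate neurons (15.8%, 26.1%, and 36.9% without doublet-like cells), 45.8% of coeliac neurons (21.9%, 37.8%) and 60.1% of sphenopalatine glia (36.1%, 34.4%).

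Directions that reversed were all of differences that had not passed. *Rarb* in fibroblasts against neurons was -0.11 without the filter and -0.089 with *Thbs4* and *Ccl11* fibroblasts only, which also gave -0.25 for *Rarg* against glia, -2.64 for *Aldh1a2* against neurons, -1.34 for pelvic *Crabp1* and 0.47 for pelvic *Crabp2*. Pelvic *Crabp1* in fibroblasts was -0.013 thinned, -0.50 without the round term and -0.36 with *Cldn1* and *Lypd2* cells joined. Pelvic *Aldh1a3* in neurons was 0.051 without doublet-like cells. Leaving out a library reversed 14 further values. Over the libraries left out, the log2 difference ran from -0.076 to 0.36 for *Rarg* in fibroblasts against glia and from -0.013 to 0.18 for *Rarb* in fibroblasts against neurons. For the pelvic ganglion it ran from -1.78 to 0.59 for *Aldh1a1* in neurons, from -0.33 to 0.13 for *Aldh1a3* in neurons and from -0.079 to 0.46 in glia, and in fibroblasts from -0.12 to 0.23 for *Rara*, from -1.18 to 1.34 for *Crabp1* and from -2.42 to 0.87 for *Crabp2*.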
